A study of Homo sapiens with 26 samples.

Results

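The genes described here are 312 protein-coding genes with low values that begin just past the end of an expressed gene on the same strand, out of 25745 measured genes of which 15009 are protein-coding. A gene was included when its mean log2 FPKM over the 26 libraries was under 2, when a same-strand gene with a mean of at least 3 ended 0 to 5 kb upstream of its start, and when the pair did not overlap. FPKM is the number of fragments per kilobase of exon, scaled to the size of the library. EGR1, FOS and symbols that begin ZNF, SLC, HIST or PCDH were left out. Gene positions, strands and gaps came from GENCODE 29 on hg38. The 312 genes are called low downstream genes, and the expressed genes before them, 307 in number because a few serve more than 1 gene, are called neighbours. The genes were chosen by their measured mean levels over all libraries and by position, so levels and gaps are given as description.

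The libraries came from HEK293T, an established line of human kidney origin with the SV40 T antigen, stably expressing APEX2 fusions. APEX2 is an engineered peroxidase that turns biotin-phenol into short-lived radicals, which tag molecules close to the enzyme. Targeting sequences named Lyn11 and Lck placed the enzyme inside the plasma membrane, and CD28 and PDGFR placed it outside. Labeled libraries numbered 4 for Lyn11 and 3 each for Lck, CD28 and PDGFR, and unlabeled controls numbered 4 for Lyn11 and 3 each for Lck, CD28 and PDGFR. Per the labels, cells took up biotin-phenol over 30 min, the enzyme was set off by a 1 min pulse of peroxide at 1 mM, and tagged RNA was drawn onto streptavidin beads, with the same steps listed for the controls. Which step the controls skipped, and whether each line was 1 clone, is not given in the sources used here. The design addresses which RNAs labeling enriched at either face of the membrane.

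In human cells an RNA polymerase does not stop where a gene ends. The transcript is cut shortly after a poly(A) signal, usually AATAAA or the weaker ATTAAA, by the cleavage and polyadenylation complex, and the polymerase goes on downstream until an exonuclease that degrades the uncapped remainder helps release it. RNA from that stretch is short-lived and nuclear, and when termination is late it can run through the next gene on the strand. A read that falls in the exons of a low downstream gene can therefore come from that gene's own promoter or from its neighbour, and a count per gene holds both.

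Because the neighbour's end and the low gene's own start bound the interval in question, both are shown. The last 30 bases of 5 neighbours are given on the transcript strand in hg38 coordinates from GENCODE 29, with the poly(A) signal in capitals.
RPL18, before FAM83E, chr19:48615328-48615357, minus strand: ctcttATTAAAaagatttttgctgacagtg
RANGAP1, before CHADL, chr22:41245611-41245640, minus strand: cttcacaAATAAAgtcgtgtggcagcttca
SRP72, before ARL9, chr4:56503652-56503681, plus strand: aaAATAAAatattttagcagtgaatatgga
MARCH6, before ROPN1L, chr5:10440359-10440388, plus strand: tttatcacAATAAAggtgtcatactatgca
CABIN1, before SUSD2, chr22:24178599-24178628, plus strand: ggttgcttttctAATAAAgatggaacagtt

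In those 5 ends the signal stood 12 to 22 bases before the annotated last base. Over the last 50 bases of the transcript, read on its own strand, AATAAA or, failing that, ATTAAA was found in 80.9% of 304 neighbours matched to a transcript, in 83.8% of the 68 neighbours of low downstream genes called higher below, and in 74.6% of all 15009 measured coding genes. AATAAA itself was found in 60.9% of the neighbours and 60.7% of all measured coding genes. C19orf48 and CD59, the neighbours of AC010325.1 and C11orf91, had neither form in that window.

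The starts of the low downstream genes were compared by the dinucleotide CG, which is frequent in the promoters of widely expressed genes and reads alike on both strands. RefSeq promoters (GRCh38.p14, 250 bases before to 50 after the start) matched 226 of the 312 low downstream genes. The median promoter held 16 CGs in the low downstream genes and 7.5 in the 48 matched genes called higher, against 29 in 259 neighbours, 20 in 4558 coding genes with a mean log2 under 2 and 22 in all 14896 matched coding genes. The quartiles of the genes called higher were 3.75 and 13.25 CGs. The letters TATAAA, searched on both strands and sharing no bases with CG, were in 10.4% of the promoters of genes called higher, 5.75% of all low downstream promoters, 1.93% of neighbours and 9.37% of all coding promoters. ADIG (adipogenin, a protein of fat cells) had no CG in its promoter and its neighbour RALGAPB, a subunit of a Ral GTPase-activating complex, had 28. C11orf91 had 37, so a CG-poor start was not shared by all genes called higher. The 3 promoters follow, with CG in capitals.
ADIG, chr20:38580947-38581246, plus strand: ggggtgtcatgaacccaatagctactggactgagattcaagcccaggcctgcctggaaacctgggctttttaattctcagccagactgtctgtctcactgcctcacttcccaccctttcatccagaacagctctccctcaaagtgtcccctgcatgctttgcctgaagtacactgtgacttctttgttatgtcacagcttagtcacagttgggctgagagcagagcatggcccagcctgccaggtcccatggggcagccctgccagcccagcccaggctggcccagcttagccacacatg
RALGAPB, chr20:38472593-38472892, plus strand: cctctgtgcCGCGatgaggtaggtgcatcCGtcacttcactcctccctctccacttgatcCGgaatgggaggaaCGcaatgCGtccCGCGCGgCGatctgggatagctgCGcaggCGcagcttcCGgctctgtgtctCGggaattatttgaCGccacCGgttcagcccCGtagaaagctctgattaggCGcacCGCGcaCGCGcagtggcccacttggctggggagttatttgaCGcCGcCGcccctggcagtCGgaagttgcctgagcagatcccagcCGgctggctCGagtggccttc
C11orf91, chr11:33700777-33701076, minus strand: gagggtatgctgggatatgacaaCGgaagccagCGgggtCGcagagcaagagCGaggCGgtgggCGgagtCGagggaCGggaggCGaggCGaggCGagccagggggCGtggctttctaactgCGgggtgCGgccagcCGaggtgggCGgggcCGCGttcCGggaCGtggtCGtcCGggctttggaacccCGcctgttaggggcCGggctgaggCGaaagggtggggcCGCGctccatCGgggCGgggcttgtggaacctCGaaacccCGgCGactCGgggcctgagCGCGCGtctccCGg

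Recovered library totals were 19.94 to 35.5 M reads for Lyn11 and Lck and 11.57 to 16.58 M reads for CD28 and PDGFR, so depth and side of the membrane cannot be told apart. The libraries that differed most from the rest were replicate 2 of the CD28 labeled group (3133 genes at 0 reads) and replicate 2 of the PDGFR controls (3001 genes), where the others had 23 to 1534 such genes. Of 8 HEK293T markers, 7 were measured and 5 had a mean log2 of at least 1, while the defining blood genes PTPRC and HBB and the fibroblast genes COL1A2 and DCN were not in the table. The 4 measured blood markers summed to 2.92 to 5.28 FPKM in labeled libraries and 2.82 to 5.99 FPKM in controls, and the 4 measured fibroblast markers to 5.17 to 10.9 and 5.62 to 10.4 FPKM. The 3 measured epithelial markers summed to 1.07 to 2.85 FPKM in labeled libraries and 0.736 to 2.83 FPKM in controls. The part of these markers in the results was not tested.

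The mean log2 FPKM of the low downstream genes ran from -4.38 to 1.97 with a median of 0.30, and that of the neighbours from 3.00 to 9.24 with a median of 3.99. The gap ran from 46 to 4941 bases with a median of 2040. As recovered reads, which could be had for 293 of the genes, a low downstream gene had 166 to 33434 reads over the 26 libraries, with a median of 2265. Taking for each gene the median over libraries, its FPKM was 7.27% of its neighbour's in the labeled libraries and 5.6% in the controls at the middle gene. Just inside the level limit stood CTSK (1.97), PLEKHG5 (1.97) and HAGHL (1.95), and just outside it DNAJB14 (2.0), MAPK11 (2.01) and OGG1 (2.02). TBC1D10A had a gap of 4941 bases and CD14, just outside, one of 5038. TCEA3 followed ASAP3 at a mean log2 of 3.00, and S100A14, left out, followed S100A13 just under that limit.

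In the average over the 4 constructs, low downstream genes were higher in labeled libraries far more often than they were lower, while few of the genes before them were called. In a limma fit over every gene of the table, 68 of the 312 had a higher average labeled level at an adjusted p under 0.05, which is 21.8% of them, and 0 had a lower one. The same fit called 4.52% of all genes and 7.54% of the 6232 coding genes with a mean log2 under 2 higher, and 2.90% of all genes lower. At an unadjusted p under 0.05, 121 low downstream genes were higher and 8 lower in the same limma fit (38.8% and 2.56%), against 10.1% and 9.12% of all genes. Of the 224 it tested, limma voom on recovered reads called 54 higher and 1 lower, against 4.46% and 3.13% of all genes. Their median difference was 0.27 on the log2 scale, against -0.00 for all genes and 0.02 for all low coding genes. Under the filter that kept genes with log2 above 0 in at least 3 libraries, 236 low downstream genes entered, of which 49 were higher and 1, STRADA, was lower, against 4.29% and 3.08% of all genes tested. The other 76 did not pass that filter. Of the 236, 15 passed it with no control library above 0, among them SUSD2, C11orf91, ADIG, GPD1 and C17orf107, and 186 had at least 3 libraries above 0 in each state, of which 29 were called higher in the fit without a filter. The values are levels of RNA drawn onto streptavidin beads, scaled to the size of the library. A higher labeled value therefore means a larger share of the captured RNA, and FPKM does not give the total amount captured. Since each library pools many cells, a larger share per cell and more cells with captured RNA of the gene cannot be told apart.

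**Figure D1:**
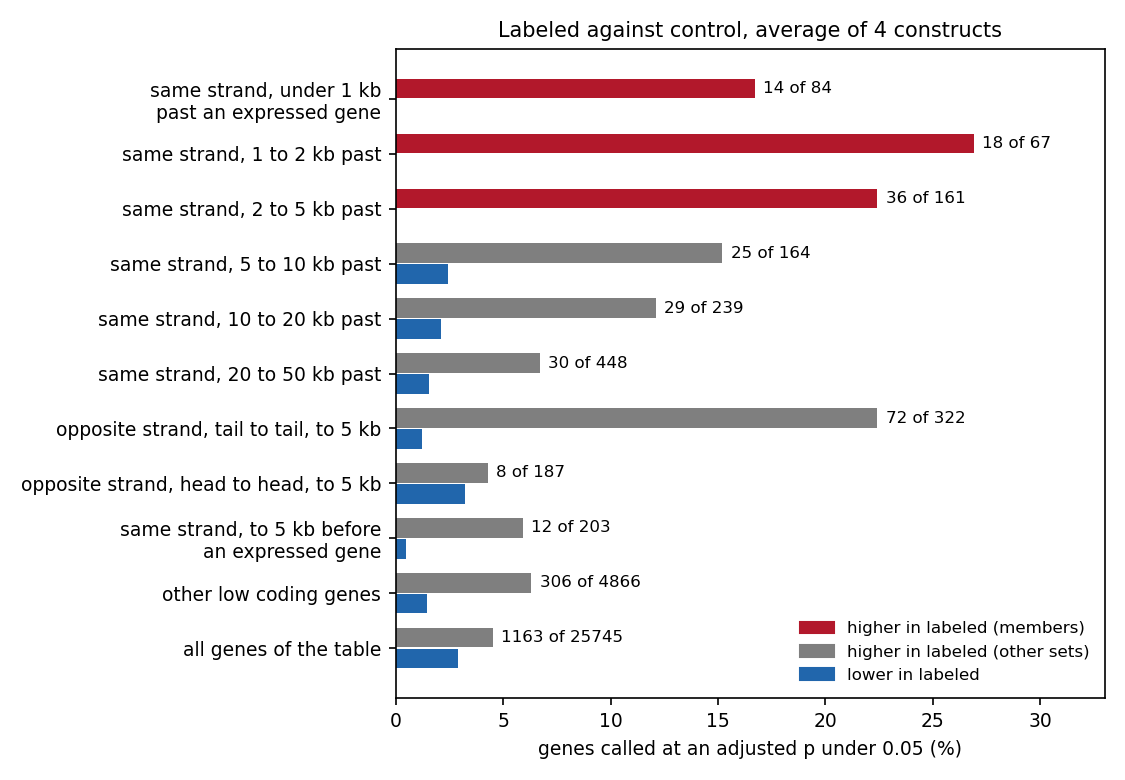
Share of genes called in the average of the 4 constructs (limma without a filter, adjusted p under 0.05), for low downstream genes by gap and for other sets of genes. The horizontal axis is the percentage of each set's genes, and the counts beside the bars are genes higher in labeled libraries. The opposite-strand sets hold no low downstream genes but can share genes with the other sets. Low downstream genes had 14 of 84, 18 of 67 and 36 of 161 called higher in the 3 gap classes and none called lower, and the opposite-strand tail to tail genes had 72 of 322 called higher.

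The called differences ran from 0.40 to 2.94 log2 units with a median of 1.17. Of the 68 genes, 55 had a positive difference in all 4 constructs. Labeled and control libraries did not overlap in at least 2 constructs for 59, and in all 4 for 6. The 68 were called on the average of these same constructs, so these counts partly follow from that choice and only describe the genes. Of their 68 neighbours, 1 was called in the average with the filter, RABGGTB before MSH4. In that fit 4.29% of all genes tested were higher and 3.08% lower. Called without the filter but not past it were 17 genes.

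The smallest p belonged to SUSD2 (chr22:24181259-24189110, plus strand), which encodes a sushi domain membrane protein and begins 2630 bases past CABIN1, the calcineurin-binding gene whose end is printed above. In Lyn11 cells SUSD2 was at -0.17, 0.67, 0.03 and 0.49 log2 FPKM in labeled libraries and -1.40, -1.29, -1.08 and -1.53 in controls. In Lck cells it was at 0.93, 0.82 and 0.39 in labeled libraries and -1.83, -1.05 and -1.38 in controls. The groups did not overlap in either construct placed inside. In CD28 cells SUSD2 was at 0.26, -0.36 and 0.20 in labeled libraries and -1.50, -0.80 and -1.97 in controls. In PDGFR cells it was at 1.64, 0.89 and 1.02 in labeled libraries and -0.00, -1.67 and -0.93 in controls. Labeled libraries were thus above controls in every construct, by 1.81 ± 0.193 log2 units on average in the fit without a filter (SE; limma adjusted p = 2.76e-06). CABIN1 averaged 4.99 ± 0.16 in Lyn11 labeled and 4.94 ± 0.31 in Lyn11 control libraries (SD, n = 4 each), and its average difference over the constructs was -0.01.

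FAM83E, a member of the FAM83 family (chr19:48600810-48614854, minus strand), begins 473 bases past RPL18, which encodes a protein of the large ribosomal subunit. Its log2 FPKM was 0.03, 2.0, 0.93 and 2.09 in Lyn11 labeled libraries and -0.25, -1.77, -2.61 and -2.07 in Lyn11 controls. It was 2.14, 1.74 and 1.53 in Lck labeled libraries and -2.25, -0.87 and -0.79 in Lck controls. In reads, these were 174 to 236 in the Lck labeled libraries and 10 to 31 in the Lck controls, at near equal depth. CD28 labeled libraries had 1.05, 0.30 and 1.34 and CD28 controls 0.22, -0.54 and -1.43. PDGFR labeled libraries had 1.85, 1.87 and 2.0 and PDGFR controls -0.13, -5.61 and 0.27, where -5.61 stands for 0 reads in replicate 2. No construct had overlapping groups, and the average difference was 2.81 ± 0.491 (SE; limma adjusted p = 0.000776). RPL18 differed by 0.18 on the same scale, with 7.19, 6.93 and 6.78 in Lck labeled and 6.85, 7.23 and 7.04 in Lck control libraries.

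RNF225, a RING finger gene, had 42, 44 and 43 reads in Lck labeled and 2, 5 and 6 reads in Lck control libraries, and was higher by 2.56 ± 0.428 on average (SE; limma adjusted p = 0.000499). RPL3L encodes the form of ribosomal protein L3 found in heart and skeletal muscle and lies 4445 bases past RPS2, whose mean log2 of 9.24 was the highest of the neighbours. Over the 13 labeled libraries RPL3L ran from 1.10 to 2.12 log2 FPKM with a median of 1.5, and over the 13 controls from -0.87 to 1.25 with a median of 0.23, and at the median it stood at 0.481% of RPS2 in labeled libraries and 0.19% in controls. The ranges overlapped slightly over all constructs, and the average difference was 1.15 ± 0.169 (SE; limma adjusted p = 0.000135). RPL3L is a paralog of RPL3, and how reads shared by such copies were assigned is not given in the sources used here.

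**Figure D2:**
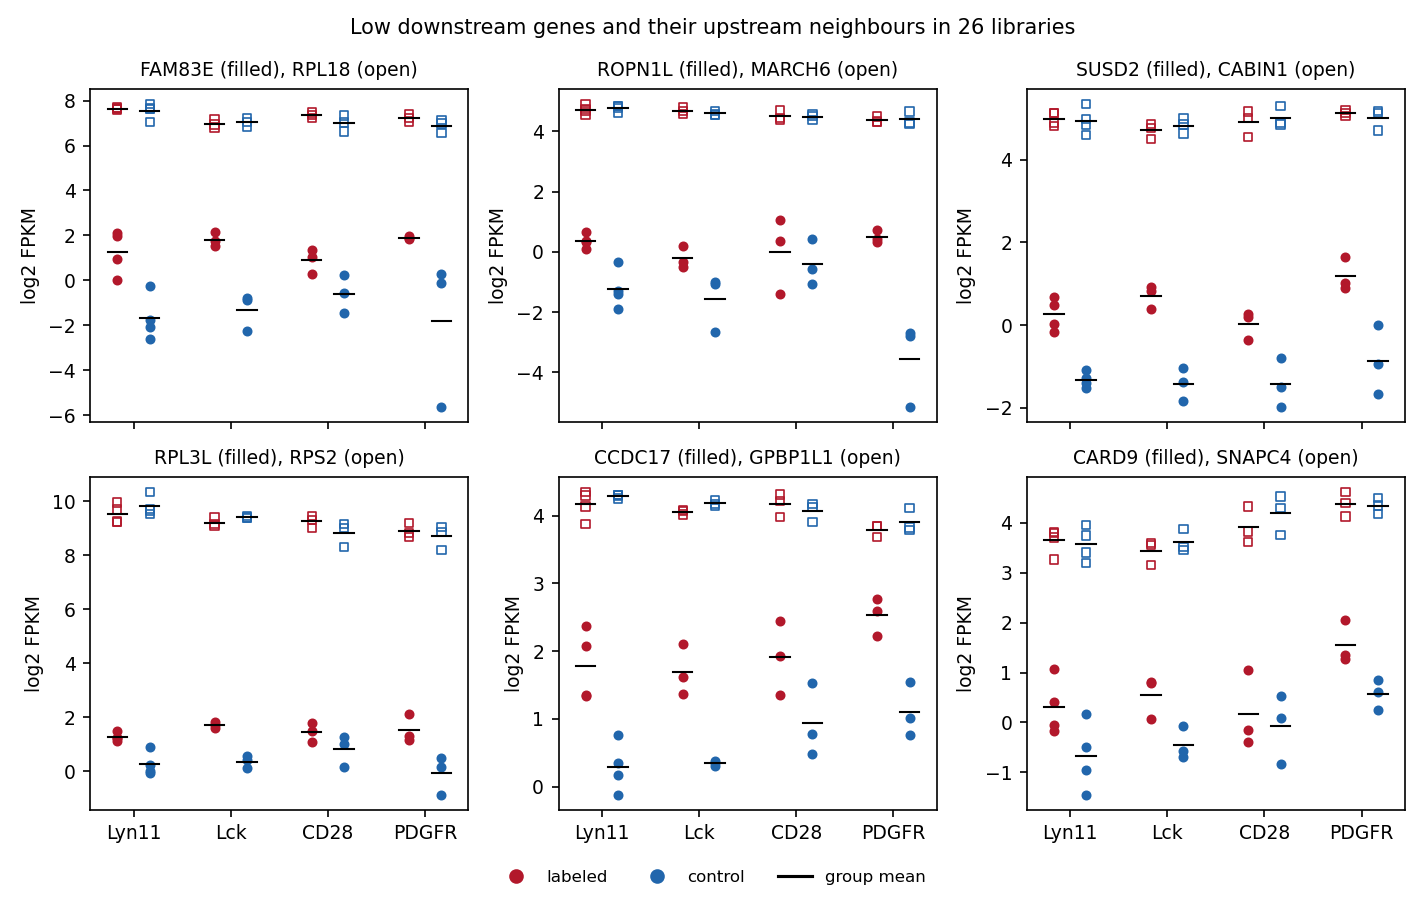
Log2 FPKM of 6 low downstream genes (filled circles) and their neighbours (open squares) in each of the 26 libraries, by construct, with labeled libraries in red left of controls in blue and group means as black lines. In Lck cells FAM83E stood at 1.53 to 2.14 in labeled libraries and -2.25 to -0.79 in controls, while the open squares of RPL18 overlapped.

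Among genes past the filter, the largest average difference, 2.94 ± 0.405 (SE; limma adjusted p = 6.23e-05), was that of AC010325.1, a coding gene model 4561 bases past C19orf48, which shares ground with AC010325.2 on its own strand and ACP4 on the other. Its Lck libraries had 293, 347 and 302 reads when labeled and 21, 23 and 27 as controls. Next in size among these after FAM83E and RNF225 were C11orf91 past CD59, a complement inhibitor (2.36), ADIG past RALGAPB (2.28), and SPEF1, a microtubule protein of cilia, past the centromere protein gene CENPB (2.22). CHADL, a cartilage matrix protein gene past RANGAP1 (2.04), ARL9, a small GTPase gene past SRP72 (1.89), and ROPN1L, a gene of the sperm fibrous sheath past MARCH6 (1.85), completed the 10 largest past the filter with SUSD2. The limma adjusted p of these 10 was between 3.12e-06 and 0.00641 with the filter and between 2.76e-06 and 0.00585 without it. Without the filter HCLS1 (2.72) and TBR1 (2.69) came between FAM83E and RNF225 in size. All 10 stayed called in every alternative in which they entered the fit. AL049629.2, an annotated gene that spans CD59 and C11orf91, shares 28.5% of the exon bases of C11orf91. ADIG shows how few reads stood behind some of these values, with 13, 23, 28 and 54 reads in Lyn11 labeled and 21, 3, 2 and 1 in Lyn11 control libraries, and 0, 12 and 0 in PDGFR labeled and 0, 0 and 2 in PDGFR control libraries.

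Genes best known from other tissues stood among those called only without the filter. These were picked after their values were seen. HCLS1, an actin-binding protein of blood cells, begins 2271 bases past GOLGB1, a Golgi matrix gene. It ran from -2.49 to -0.71 log2 FPKM over labeled libraries with a median of -1.26, and from -6.62 to -2.29 over controls with a median of -3.77 (limma difference 2.72 ± 0.342 SE, adjusted p = 2.05e-05). TGM4, a transglutaminase of the prostate, begins 1231 bases past the kinesin gene KIF15. It had a median of -0.84 in labeled libraries and -2.68 in controls (limma difference 1.80 ± 0.214 SE, adjusted p = 9.43e-06). TBR1, a transcription factor of cortical neurons, lies 4376 bases past the proteasome gene PSMD14. Its median was -2.70 in labeled libraries and -5.49 in controls, and it overlaps a noncoding gene on each strand and SLC4A10 on its own. HAMP, which encodes the liver hormone hepcidin, had a median of -2.65 in labeled libraries and -3.77 in controls. IL34, a cytokine gene past SF3B3, had -0.81 in labeled libraries and -2.68 in controls. In labeled libraries HCLS1, TBR1 and IL34 reached 2.96%, 1.30% and 1.08% of their neighbours at the median, against 0.558%, 0.207% and 0.269% in controls.

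Among low downstream genes with more reads, CCDC17, a coiled-coil gene 3246 bases past GPBP1L1, reached 24.0% of its neighbour's FPKM in labeled and 7.98% in control libraries at the median. It had 304, 241 and 204 reads in Lck labeled and 89, 97 and 86 in Lck control libraries, with no overlap. The average difference was 1.31 ± 0.166 (SE; limma adjusted p = 2.06e-05), while GPBP1L1 differed by -0.07. SHISA4, past the importin gene IPO9, was higher by 1.53 ± 0.275 (SE; limma adjusted p = 0.00101) and BGLAP, the osteocalcin gene of bone past PMF1, by 1.51 ± 0.308 (SE; limma adjusted p = 0.00318). BGLAP shares 33.4% of its exon bases with PMF1-BGLAP, an annotated read-through gene of the pair. MSH4, a meiotic mismatch repair gene past RABGGTB, was higher by 0.79 ± 0.145 (SE; limma adjusted p = 0.00122), and RABGGTB itself by 0.36 ± 0.0747 (SE; limma adjusted p = 0.00382).

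The gene called lower, STRADA, a pseudokinase that activates the kinase LKB1, had 0.91 ± 0.17 in Lyn11 labeled and 1.21 ± 0.17 in Lyn11 control libraries (SD, n = 4 each) and differed by -0.33 ± 0.101 (SE; limma adjusted p = 0.0497, and 0.0507 without the filter). It was called in 8 of 35 alternatives. CARD9, called higher, was called in 26 of 34 alternatives, TTC36 in 24 of 35, C17orf107 in 20 of 34, DNASE1L2 in 16 of 35 and CTSK in 10 of 35.

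The difference between a low downstream gene and its neighbour was tested directly, as the log ratio of each pair over all 1661 same-strand pairs whose downstream gene is coding and begins within 5 kb. Of 230 pairs that passed the filter and held a low downstream gene, the ratio was higher in labeled libraries in 59 and lower in 4, against 10.2% and 4.39% of all pairs. Without a filter it was higher in 77 and lower in 3 of 306, against 9.8% and 3.76% of all 2101 pairs. The smallest p was again that of SUSD2, whose ratio to CABIN1 was higher by 1.82 ± 0.157 without a filter (SE; limma adjusted p = 2.26e-07). With the filter, lower ratios were found for CRACR2B to PNPLA2 (-0.53), OSBPL7 to MRPL10 (-0.45) and STRADA to CCDC47 (-0.44), with limma adjusted p-values of 0.00152 to 0.0487, and that of STRADA was not called without it (limma adjusted p = 0.0535). Among the 307 neighbours themselves, 3 were higher (RABGGTB, SNHG15 and ISCA1) and 1 lower (CDKN1B) in the average limma fit with the filter. Of all genes tested, 4.29% were higher and 3.08% lower. The neighbours' median difference was 0.02 in the average, but -0.03 in Lyn11, -0.13 in Lck, 0.15 in CD28 and 0.06 in PDGFR cells. For all genes tested the construct medians were -0.03, -0.04, 0.03 and 0.02. Inside minus outside, the median was -0.18 for neighbours and -0.04 for all genes. These medians were not tested. The SD of the differences across the 236 pairs' low genes was 0.609 log2 units, and across their neighbours 0.108.

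**Figure D3:**
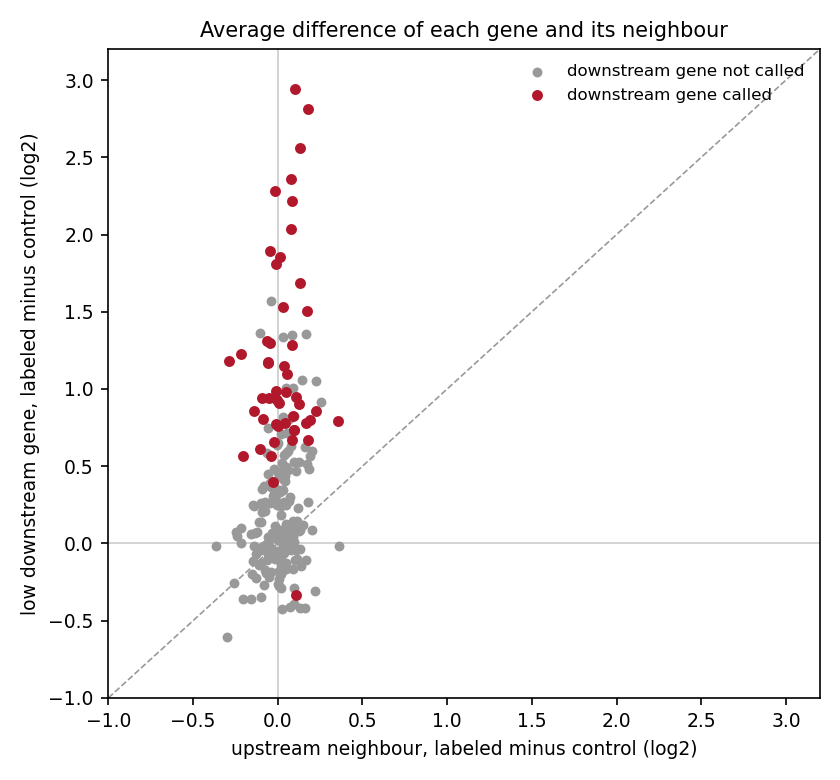
Average labeled minus control difference of each low downstream gene that passed the filter (vertical axis, log2) against that of its neighbour (horizontal axis, log2), with red points for genes called at a limma adjusted p under 0.05 and a dashed line of equal difference. The neighbours stayed close to 0 while red points reached 2.94, and the red point below 0 is STRADA.

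By gap, the share called higher was 16.7% of 84 genes under 1 kb, 26.9% of 67 at 1 to 2 kb and 22.4% of 161 at 2 to 5 kb. Beyond the rule's limit, low coding genes whose expressed same-strand neighbour ended farther upstream had 15.2% of 164 called higher at 5 to 10 kb, 12.1% of 239 at 10 to 20 kb and 6.70% of 448 at 20 to 50 kb. The median differences ran in the same order past 2 kb, at 0.27, 0.08, 0.04 and -0.01. Some low coding genes had an expressed same-strand gene starting up to 5 kb past their end and none ending within 5 kb before them. Of these 203, 5.91% were called higher, against 6.29% of the remaining 4866 low coding genes. Genes near an expressed gene on the opposite strand, and the symbols left out by the rule, were not removed from those 4866. These shares were not tested against each other.

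Orientation was looked at after these values were known. Low coding genes that lie tail to tail with an expressed gene on the opposite strand, their ends within 5 kb, had 22.4% of 322 called higher and 1.24% lower, with a median difference of 0.26. That share is near the 21.8% of the low downstream genes. Low coding genes lying head to head, with starts within 5 kb, had 4.28% of 187 called higher and 3.21% lower. Only low downstream genes were kept out of the opposite-strand sets, which can share genes with the other sets above. The sources used here do not say whether the libraries kept strand, and without it reads from a gene and from RNA of the opposite strand cannot be told apart.

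**Figure D4:**
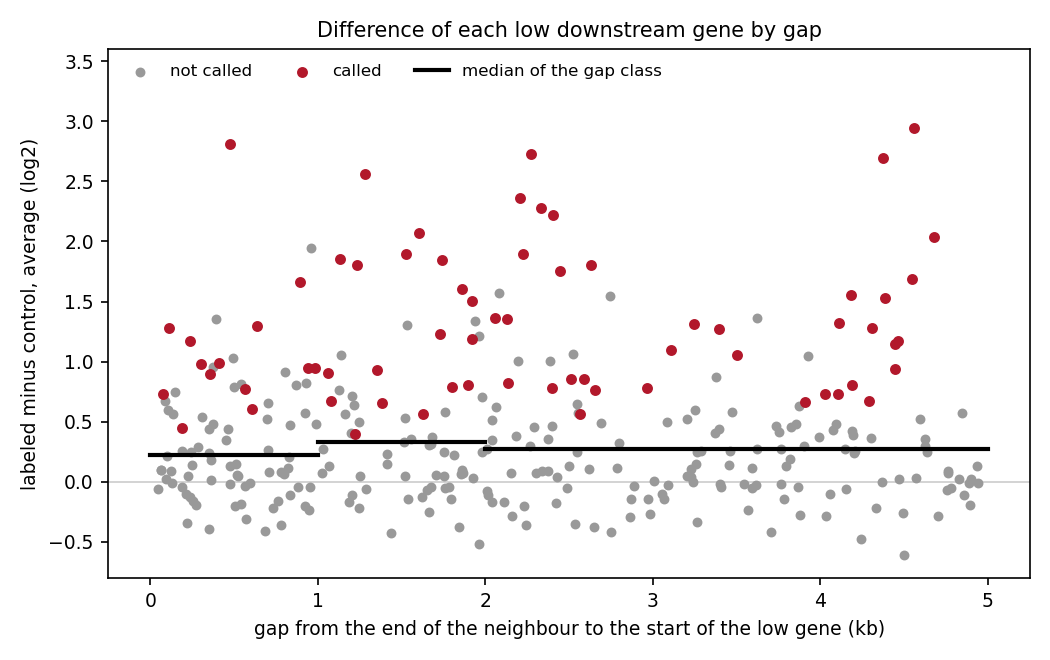
Average labeled minus control difference (log2, limma without a filter) of each of the 312 low downstream genes against the gap to its neighbour in kb, with called genes in red and the median of each gap class as a black line. The medians were 0.23, 0.33 and 0.27, and called genes appear from 73 bases to near the 5 kb limit.

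The share called also moved with the neighbour's level, at 29.3% of 58 genes past a neighbour with a mean log2 of at least 5, 24.7% of 97 at 4 to 5 and 17.2% of 157 at 3 to 4. By the low gene's own level it was 29.9% of 67 genes under -1, 23.9% of 71 at -1 to 0, 21.0% of 81 at 0 to 1 and 15.1% of 93 at 1 to 2, against 8.32%, 8.98%, 6.94% and 3.91% of the other low coding genes in the same bands. Of the 113 genes that overlap no other annotated gene, 30 were called higher, or 26.5%, with a median difference of 0.46. Of the 36 genes where another annotated gene spans the pair, 5 were called higher, or 13.9%, with a median of 0.06.

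Those 36 pairs hold several genes known to be expressed in most cells, among them GABARAP, an autophagy protein of the ATG8 family, the nucleoside diphosphate kinase NME2 and the transcription factor TFIID subunit TAF10. The spanning gene shared a median of 29.5% of the low gene's exon bases on the same strand, and reads that fall in both may have been left uncounted or split, which the sources used here do not state. GABARAP, past CTDNEP1, had a median of -0.74 log2 FPKM in labeled and -0.89 in control libraries, and NME2, past NME1, 1.57 in labeled and 1.43 in control libraries. TAF10, 95 bases past TPP1, ran from 1.37 to 1.91 in Lck labeled and from 1.59 to 1.65 in Lck control libraries, and its average difference was 0.02. Spanning genes were annotated for 18 of the 84 pairs with a gap under 1 kb, or 21.4%, for 8.96% at 1 to 2 kb and for 7.45% at 2 to 5 kb.

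By construct, the median difference of the 312 genes was 0.34 in Lyn11, 0.39 in Lck, -0.03 in CD28 and 0.30 in PDGFR cells, against -0.02, -0.03, 0.01 and 0.03 for all genes. Labeled libraries lay wholly above controls in 54 genes in Lyn11 (17.3%), 138 in Lck (44.2%), 23 in CD28 (7.37%) and 78 in PDGFR (25%), where all genes had 3.74%, 14%, 6.97% and 7.5%. They lay wholly below in 3, 17, 10 and 6 genes, where all genes had 1.93%, 12.4%, 6.77% and 6.22%. CD28 cells were thus near the background, and their median over the genes past the filter was -0.03 with and 0.22 without labeled replicate 2, one of the libraries that differed most. Over all 312 genes limma called 5 higher in Lyn11, 9 in Lck, 0 in CD28 and 19 in PDGFR cells, against 0.474%, 0.742%, 0.167% and 1.54% of all genes, and 0 lower in each, against 0.0388%, 0.035%, 0.287% and 0.886%. Past the filter, limma called 3 genes higher in Lyn11, 6 in Lck, 0 in CD28 and 10 in PDGFR cells, against 0.530%, 0.758%, 0.175% and 1.37% of all genes, and 0 lower in each, against 0.0494%, 0.0359%, 0.301% and 0.758%. At an unadjusted limma p under 0.05, 71, 81, 23 and 67 of the 312 were higher in Lyn11, Lck, CD28 and PDGFR cells, against 4.16%, 4.82%, 5.29% and 8.72% of all genes, and 0, 1, 12 and 5 were lower, against 1.53%, 1.75%, 8.08% and 6.08%. These counts of calls depend on the fit. Weighting libraries by construct gave 6, 71 and 1 past the filter in Lyn11, Lck and PDGFR cells, and the replicate block gave 0, 1 and 5. The shares of all genes called by construct with weighting and with the block are not given here. Those counts therefore show only that the calls depend on the fit. In CD28 cells limma voom on recovered reads also called 0, against 0.0957% of all genes.

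Called by construct in Lyn11 cells were CCDC17, SUSD2 and MSH4. In Lck cells AC010325.1, SHISA4, SUSD2, the glycerol phosphate dehydrogenase gene GPD1, the brush border myosin gene MYO1A and the muscle gene ITGB1BP2 were called. In PDGFR cells ROPN1L, TMEM106A, TTC36, C17orf107, SUSD2, CFAP53, RPL3L, CCDC17, MTMR11 and SPAG1 were called. These lists come from the fit with the filter. SUSD2, GPD1 and C17orf107 passed that filter with no control library above 0, so their entry depended on the labeled libraries. ROPN1L had 33, 35 and 42 reads in PDGFR labeled libraries and 4, 0 and 3 in PDGFR controls. TMEM106A had 91, 40 and 48 in PDGFR labeled libraries and 80, 0 and 1 in PDGFR controls, so its call rests on control replicates 2 and 3. These counts moved when 1 library was left out. The Lyn11 count was 0 without labeled replicate 2 or 4 or control replicate 2, 3 or 4, 5 without control replicate 1 or PDGFR control replicate 1, 8 without CD28 labeled replicate 2 and 7 without PDGFR control replicate 2. The Lck count was 0 without Lck labeled replicate 1 or 2 or control replicate 1, 1 without labeled or control replicate 3, 2 without control replicate 2, 3 without Lyn11 labeled replicate 3, Lyn11 control replicate 4 or CD28 labeled replicate 1, and 15 and 10 without CD28 labeled and PDGFR control replicate 2. The CD28 count was 1 without PDGFR labeled replicate 2. The PDGFR count was 3 without labeled replicate 1 or 2, 4 without labeled replicate 3, 18 without control replicate 1 and 5 without control replicate 2. It was 5 or 6 without each Lck library, Lyn11 labeled replicate 3 or Lyn11 control replicate 2 or 3.

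The difference between inside and outside constructs was tested in the same limma fit and called 0 low downstream genes in either direction, where 0.00449% of all genes were called with the filter and 0.00388% without it. At an unadjusted limma p under 0.05, 22 of the 312 were higher inside and 0 lower (7.05% and 0%), against 3.81% and 2.83% of all genes, and limma voom called 0. Without the 2 libraries that differed most the average comparison called 71 genes higher and 1 lower of the 236, against 49 and 1 with them. Calls over all 22284 genes tested rose as well, from 1642 to 1945 in either direction.

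Whether a low downstream gene followed its neighbour from library to library was described by Pearson's r over the 26 libraries, as deviations from group means. These points share library and depth. The median r was 0.247 for the low downstream genes, 0.194 for low genes 5 to 50 kb past an expressed gene, 0.271 for those just before one, 0.246 tail to tail and 0.272 head to head. By gap the medians were 0.321 under 1 kb, 0.179 at 1 to 2 kb and 0.218 at 2 to 5 kb. Among genes with a mean log2 of at least 0, CARD9, a signalling adaptor of myeloid cells past SNAPC4, had the highest r, 0.912, followed by ABTB1 past PODXL2 (0.901) and FBXO4 past C5orf51 (0.840). ABTB1 begins 125 bases past its neighbour and its labeled minus control difference was 0.09, while CARD9 had a difference of 0.81. At the other end of the same genes CCDC17 had an r of -0.788, TNS2 past EIF4B -0.764 and MYO1A past NEMP1 -0.698. High and low r thus both occurred among genes called higher.

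Factors that cut transcripts and end transcription were listed as the other genes of the pathway. Of 31 listed, 30 were measured, and in the average limma fit 1 was higher and 0 lower, where 4.29% and 3.08% of all genes tested were called, with a median difference of 0.00. The gene called was PCF11, which bridges cleavage and polymerase release, at 0.38 ± 0.046 (SE; limma adjusted p = 1.17e-05). In Lck cells PCF11 was higher by 0.71 ± 0.0949 (SE; limma adjusted p = 0.000288), and no other listed factor was called in any single construct. The other listed cleavage factors, the poly(A) polymerases and the exonuclease gene XRN2 did not pass the limma test in any comparison.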

How the data were processed

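The authors deposited 1 table of log2 FPKM for 25745 genes in 26 libraries, between -9.73 and 14.8. The submitters' processing notes name the build hg38, HISAT2 2.1.0 and edgeR, the last with no version. Identifiers were matched to GENCODE 29, 24075 with their version and 1578 without it, and 92 did not match. The deposited log2 values carry a small count added by the authors, so no other pseudocount was used. Undoing it with GENCODE 29 exon lengths, which gave the observed floor in 97.3% of 3937 genes, gave read numbers for 25267 genes. Of values under 100 reads, 96.9% to 97.8% per library came out whole, with a tolerance of 0.05 read. Read numbers cover counting error only.

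The log2 values went into limma 3.58.1 (R 4.3.3) with a mean for each of 8 groups, an intensity trend and 18 residual degrees of freedom (20.87 after moderation). All libraries shared the spread. The two-sided p-values were adjusted by Benjamini-Hochberg over all genes of each comparison, with calls at an adjusted p under 0.05. The planned fit used the 22284 genes with log2 above 0 in at least 3 libraries. Counts over all 312 genes come from the same fit without that filter, because genes that pass a filter through the group where they are high had to differ. The fits were tested on simulated data.

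Named were the 10 largest called differences in each direction and comparison, the highest levels, the highest and lowest correlations with the neighbour, the smallest gaps, the genes next to each limit and called ratios. GABARAP, NME2 and the genes called only without the filter were chosen after their values were seen. Some results that the rule would name are not reported here. The members and lists were chosen with earlier results of these data known. The design text speaks of biological replicates. Same-number correlations of deviations between labeled and control libraries ran from -0.288 to 0.166. With 3 or 4 libraries in a group they cannot show whether replicate numbers pair labeled with control libraries. The main fit did not pair them and called 50 low downstream genes in the average, against 38 with the replicate block.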

Additional observations from a re-analysis of the deposited data

Results flagged for a closer look

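Among 110 groups of 4 libraries tested for the 55 named genes by the gap to the nearest library, 6 held a library far from the others, where chance gives about 1 in 20 groups. In Lyn11 controls the lowest MSH4 library stood at 0.47 log2 FPKM and the lowest UBOX5 library at 1.89, while the highest SHISA4, TAF10 and PRR22 libraries stood at 1.97, 2.78 and 2.58. The SHISA4, TAF10 and PRR22 values all came from Lyn11 control replicate 1, the deepest library at 35.5 M reads. In Lyn11 labeled libraries the highest GPS2 value was 1.52.

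TMEM106A, 145 bases past NBR1, went opposite ways in separate constructs. All Lck labeled libraries lay above the Lck controls, and all CD28 labeled libraries lay below the CD28 controls, with a CD28 difference of -1.67. The difference between the constructs was not tested.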

How the results depend on the processing

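The average comparison called 50 low downstream genes past the filter (49 higher), 22 under a filter of log2 above 1 in at least 6 libraries, where 136 entered, and 38 to 72 under the other alternatives, of which the lowest was the replicate block. Leaving out 1 library gave 41 to 71, and 41 to 49 of the 50 calls were shared each time. Over all genes the average comparison called 1642 in the main fit, 1049 under the stricter filter and 1291 to 2061 under the other alternatives. With 1 library left out it called 1293 to 1781 of all genes. The pair ratio called 63, 28 under the stricter filter, 60 with the replicate block and 57 to 85 with 1 library left out. Single constructs moved far more. Lyn11 (3 called) gave 5 without a filter, 8 with 1 FPKM added, 12 after quantile normalization, 6 with libraries weighted by construct, 0 with the replicate block, 12 by voom and 14 without the 2 libraries that differed most. Lck (6 called) gave 2 under the stricter filter, 18 with 1 FPKM added, 25 after quantile normalization, 71 weighted, 1 with the block, 19 by voom and 27 without those libraries. CD28 (0 called) gave 2 with 1 FPKM added and 1 after quantile normalization. PDGFR (10 called) gave 19 without a filter, 2 under the stricter one, 1 weighted, 5 with the block and 1 by voom. Of all genes, voom called 0.961% in Lyn11, 1.25% in Lck, 0.0957% in CD28 and 0.31% in PDGFR cells. Without the 2 libraries, calls over all genes went from 129 to 256 in Lyn11 and from 177 to 361 in Lck cells. The shares without a filter stand above, and those of the other single-construct alternatives are not given here. Leaving out 1 library gave 0 to 8, 0 to 15, 0 to 1 and 3 to 18 in Lyn11, Lck, CD28 and PDGFR, and 0 for inside minus outside. The stricter filter tests fewer genes, and the cause of the other shifts was not tested.

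The 312 genes became 155 with a neighbour level of at least 4, 151 with a gap to 2 kb and 113 without overlap. The median r of 0.247 became 0.107 with deviations from the overall mean, 0.353 in Lyn11 and Lck libraries alone and 0.232 to 0.295 with 1 library left out. For named genes, alternatives kept the call or its absence in 1727 cases, lost it in 104 and gained it in 4, with 0 reversed. The planned edgeR and TMM alternatives were not run because the deposited unit is log2. Limma voom on recovered reads, with library sizes implied by the deposited values, replaced them. That fit, the fit without the 2 libraries and the opposite-strand sets were chosen after seeing the data. Genes with few reads have differences that the added count understates.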
